A study of Mus musculus with 29 samples.

Results

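Loss of both Ezh2 alleles in megakaryocyte-erythrocyte progenitors (MEPs) without JAK2 V617F was examined in 9 of the 29 libraries of an RNA-seq series in mice. MEPs are the blood progenitors from which red cells and, by way of megakaryocytes, platelets are made. The libraries were chosen by their labels: 4 were Ezh2 -/- (1 male and 3 female) and 5 were Ezh2 +/+ controls (2 male and 3 female). Both groups carry the Cre transgene written SclCre or ScleCre in the labels, and neither carries V617F, so they differ in the labelled Ezh2 genotype. Each library came from 230000 sorted cells. The labels call the libraries replicates without naming mice, so p-values reflect sample-to-sample spread, which may be technical. The sources used here give neither ages, nor sorting gates, nor the deleted part of Ezh2. The Ezh2 +/- group (4 libraries), the V617F Ezh2 -/- group (6) and the V617F group with intact Ezh2 (4) are cited beside them, and all carry the same transgene.

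EZH2 is the main catalytic subunit of Polycomb repressive complex 2 (PRC2), which methylates lysine 27 of histone H3 and so keeps developmental, imprinted and lineage-foreign genes silent. A second complex, PRC1, binds that mark through its CBX subunits, and PRC2 can be carried in part by the related enzyme EZH1. Loss-of-function EZH2 mutations are found in myeloid neoplasms, and the CDK inhibitor locus Cdkn2a is a classical target of both complexes.

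The 9 libraries held 34849398 to 59448945 counts, and 13928 of 18834 genes passed the filter on low counts. Levels are CPM, counts scaled to a common library total after normalization, and changes are log2 fold changes ± SE. A gene is called higher or lower where the adjusted p of edgeR's quasi-likelihood test is under 0.05. Each SE was derived from that test, as the absolute log2 fold change divided by the square root of its F statistic. Control replicate 5 stood apart. The summed level of 22 granulocyte markers was 360.2 CPM in it, against 57 to 118 CPM in the other controls and 24.6 to 98.6 CPM in Ezh2 -/- libraries, and Cd34, a stem cell surface sialomucin, was at 42.7 CPM in it against 1.16 to 3.59 CPM in the others. Control replicate 3 shared its high megakaryocyte level (mean log2 CPM 3.52 and 3.94, against 2.27 to 2.63 in the other controls and 2.22 to 2.69 in Ezh2 -/-). Counts for the lists below are also given without both where they then fall outside the range reached by leaving out 1 library. In bulk RNA, fewer cells of a type and less RNA per cell cannot be told apart. Gata1, the master erythroid factor that defines these progenitors, was high in every library and measured 298, 287, 293 and 255 CPM in Ezh2 -/- and 238, 259, 237, 261 and 212 CPM in controls (0.25 ± 0.09, adjusted p = 0.0569, with overlapping groups; 0.0315 without control replicate 4 and 0.0177 without Ezh2 -/- replicate 4). Of the V617F libraries used for comparison, replicate 1, labelled female, had almost no Xist RNA (1.03 CPM, against 1998 to 2014 CPM in the other female ones) and no Ddx3y counts.

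Ezh2 itself (Entrez gene 14056) followed its label in every library. It measured 79.5, 77.5, 68.9 and 67.9 CPM in Ezh2 -/- libraries and 314, 319, 301, 312 and 269 CPM in controls. The groups lay far apart, and reads from the gene were still present in every Ezh2 -/- library. The log2 fold change was -2.04 ± 0.09 (adjusted p = 1.3e-14). The counts are per gene, so reads from deleted and remaining exons cannot be told apart.

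Promoters of 4 raised genes that the results turn on are shown here because CpG density is the sequence feature most associated with Polycomb binding in mammals. The next sequences are the 250 bases before the start site in RefSeq (build GRCm38.p6, read on the strand of the gene), and the capitals mark CpG. They are Bmi1 (chr2:18676768-18677017, plus strand), the upstream Arf start of Cdkn2a (chr4:89294620-89294869, minus strand), its downstream Ink4a start (chr4:89282193-89282442, minus strand), Igf2bp3 (chr6:49214955-49215204, minus strand) and Lin28b (chr10:45470202-45470451, minus strand).
Bmi1: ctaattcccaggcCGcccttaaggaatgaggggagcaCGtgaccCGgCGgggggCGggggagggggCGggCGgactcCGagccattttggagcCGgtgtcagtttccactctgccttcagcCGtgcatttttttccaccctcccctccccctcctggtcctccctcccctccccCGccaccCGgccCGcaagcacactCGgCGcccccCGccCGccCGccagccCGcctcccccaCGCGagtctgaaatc
Cdkn2a Arf start: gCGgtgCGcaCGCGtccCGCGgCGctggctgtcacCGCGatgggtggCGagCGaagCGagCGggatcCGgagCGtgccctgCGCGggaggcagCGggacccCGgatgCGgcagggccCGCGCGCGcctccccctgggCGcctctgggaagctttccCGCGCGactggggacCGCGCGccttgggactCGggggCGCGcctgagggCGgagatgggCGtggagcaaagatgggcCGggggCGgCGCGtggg
Cdkn2a Ink4a start: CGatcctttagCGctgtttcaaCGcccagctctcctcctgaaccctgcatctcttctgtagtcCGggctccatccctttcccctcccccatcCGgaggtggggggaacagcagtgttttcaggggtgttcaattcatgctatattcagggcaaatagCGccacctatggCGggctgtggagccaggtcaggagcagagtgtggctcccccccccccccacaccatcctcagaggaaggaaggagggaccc
Igf2bp3: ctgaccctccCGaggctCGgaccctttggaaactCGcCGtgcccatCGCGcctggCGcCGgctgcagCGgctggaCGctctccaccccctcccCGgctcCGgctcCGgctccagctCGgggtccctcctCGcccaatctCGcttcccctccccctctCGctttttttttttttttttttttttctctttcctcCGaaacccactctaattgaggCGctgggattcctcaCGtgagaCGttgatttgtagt
Lin28b: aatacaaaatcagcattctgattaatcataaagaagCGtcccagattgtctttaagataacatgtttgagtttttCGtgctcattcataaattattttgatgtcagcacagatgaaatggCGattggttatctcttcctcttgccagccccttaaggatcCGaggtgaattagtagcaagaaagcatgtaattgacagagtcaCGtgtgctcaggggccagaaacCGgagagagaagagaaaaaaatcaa
These windows hold 21 CpG in Bmi1, 40 at the Arf start, 7 at the Ink4a start, 21 in Igf2bp3 and 6 in Lin28b, and so include CpG-dense and CpG-poor starts.

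A window was called CpG-rich at a GC content of at least 50% with an observed over expected CpG ratio of at least 0.6 over 300 bases. Of the called genes with a window outside chromosome 18, 77.4% of the higher (987 of 1276) and 62.8% of the lower (848 of 1351) had a CpG-rich start, beside 69.8% of those not called (5812 of 8325). Among genes at 1 RPKM or more in Ezh2 +/- libraries the shares were 81.5% of the higher and 67.3% of the lower, beside 76.5% of all tested genes at that level. For genes that changed at least 2-fold, 76.5 and 77% had a window, which is under 80%, so that check is void.

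Of the 13928 genes, 1603 were higher in Ezh2 -/- (11.5%) and 1704 were lower (12.2%). Among larger changes, 603 genes rose at least 2-fold (4.33%) and 430 fell at least 2-fold (3.09%), and 116 rose but 30 fell 8-fold or more. Most calls were small, with 780 of the higher and 1029 of the lower genes under 1.5-fold and medians of 0.62 and -0.44. Every Ezh2 -/- library lay above every control for 1598 genes (11.5%) and below every control for 1559 (11.2%). When each of the 9 libraries was left out in turn, 1052 of the 1603 higher calls (65.6%) but 671 of the 1704 lower calls (39.4%) were made every time. The lower calls numbered 1075 without control replicate 5, 815 without Ezh2 -/- replicate 3 and 783 without control replicates 3 and 5 together, and the higher calls 1020 without those 2 controls. For the gene lists below, the count over all 9 libraries is followed by its range when 1 library was left out. The low ends of the ranges of lower calls were reached without control replicate 1, without control replicate 5 or without Ezh2 -/- replicate 3. The exception was the list of Sox, Fox, Tbx, Pax and Lhx factors, where the low end was reached without control replicate 3. For a gene given library by library, the groups did not overlap unless stated otherwise.

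Calls were also counted by how strongly a gene is expressed in MEPs. Levels were taken from the 4 Ezh2 +/- libraries, which enter neither side of the comparison, as CPM per kilobase of gene length (RPKM). Under 0.1 RPKM, 20.9% of 1151 tested genes were higher in Ezh2 -/- and 5.82% were lower. Between 1 and 10 RPKM the order was turned round, with 12.5% higher and 15.7% lower of 3941. At 100 RPKM or more, 8.62% of 824 were higher and 3.88% lower. The median change of the raised genes was 2.43 under 0.1 RPKM and 0.28 at 10 RPKM or more. A gene near 0 in Ezh2 +/- libraries passes the filter only through a group that expresses it, and Ezh2 -/- is one of these. The excess and size of increases in the lowest class are therefore set in part by the filter and are given as a description. The same holds for shares of list members called higher where a list has members near 0 in controls.

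**Figure D1:**
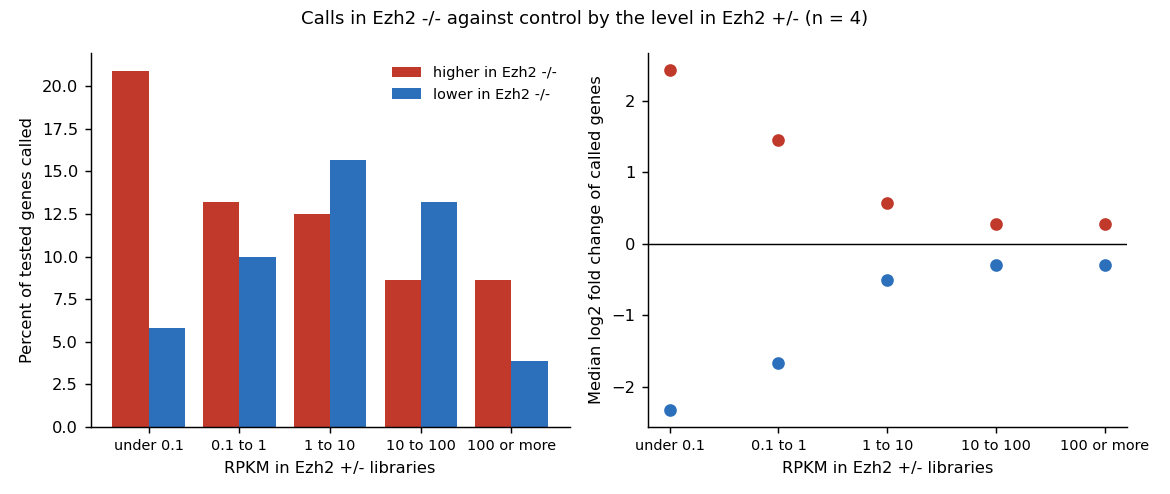
Genes called in Ezh2 -/- against control, by their mean RPKM in Ezh2 +/- libraries (n = 4, log-spaced classes). Left, percent of tested genes called higher (red) or lower (blue), and right, the median log2 fold change of the called genes. The lowest class has 20.9% higher with a median of 2.43, which the filter on low counts sets in part, since a gene near 0 in Ezh2 +/- is tested only if another group expresses it.

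The strongest evidence of all 13928 genes was for a Polycomb gene. Bmi1 (Entrez gene 12151), the PCGF subunit of canonical PRC1 that sustains stem cell self-renewal, measured 265, 265, 274 and 300.3 CPM in Ezh2 -/- and 92.9, 86.9, 85.1, 89.1 and 89.1 CPM in controls. Both groups were narrow and far apart (1.65 ± 0.05, adjusted p = 1.82e-17). In Ezh2 +/- libraries it was 89.8 ± 3.42 CPM (SD, n = 4), beside 88.6 ± 2.91 CPM in controls (SD, n = 5). Of the other PCGF and RING genes, the RYBP homolog Yaf2 was called (0.26 ± 0.06, adjusted p = 0.00446), but not without Ezh2 -/- replicate 4 (0.19, adjusted p = 0.0533).

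Among the 17 CBX and PHC type PRC1 subunits 5 rose and 2 fell (median change 0.04, against -0.01 over all genes), and 1 fell without Ezh2 -/- replicate 3. Cbx2, a reader of the mark, measured 32.6, 29.9, 29.9 and 35.5 CPM in Ezh2 -/- and 21.7, 20.3, 17.6, 15.8 and 19.4 CPM in controls (0.78 ± 0.08, adjusted p = 3.33e-08). Cbx6 (0.60 ± 0.06), Scmh1 (0.41 ± 0.07) and Scml2 (0.51 ± 0.08) rose with it. Of the 14 PRC2 genes Epop, which restrains PRC2 in stem cells, rose to 20.5, 16.5, 19 and 16.2 CPM in Ezh2 -/-, against 5.4, 6.06, 5.85, 5.27 and 8.13 CPM in controls (1.55 ± 0.16, adjusted p = 7.12e-08). The Polycomb-like subunit gene Phf19 rose by less (0.65 ± 0.11, adjusted p = 5.15e-05). The other 2 called of the list were Ezh2 and the accessory subunit gene Lcorl (-0.34 ± 0.08), and the remaining core genes did not pass: Ezh1 changed by -0.19 ± 0.09, Eed by -0.10 ± 0.09 and Suz12 by 0.08 ± 0.08 (adjusted p = 0.11, 0.426 and 0.474). Ezh1 passed without Ezh2 -/- replicate 2 (-0.26, adjusted p = 0.0434). Kdm6b, a demethylase that removes the PRC2 mark, was lower, at 65.5, 68.1, 51.7 and 66.9 CPM in Ezh2 -/- and 122, 99.2, 121, 97.3 and 106 CPM in controls (-0.77 ± 0.17, adjusted p = 0.00198). Of its list of 21 demethylase and KMT2 genes 4 were lower (19%, 2 to 5), and of the others Kdm5b was called whichever library was left out (-0.32 ± 0.07), while Kdm5a and Kmt2e were not called without Ezh2 -/- replicate 3 (adjusted p = 0.051 and 0.122).

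**Figure D2:**
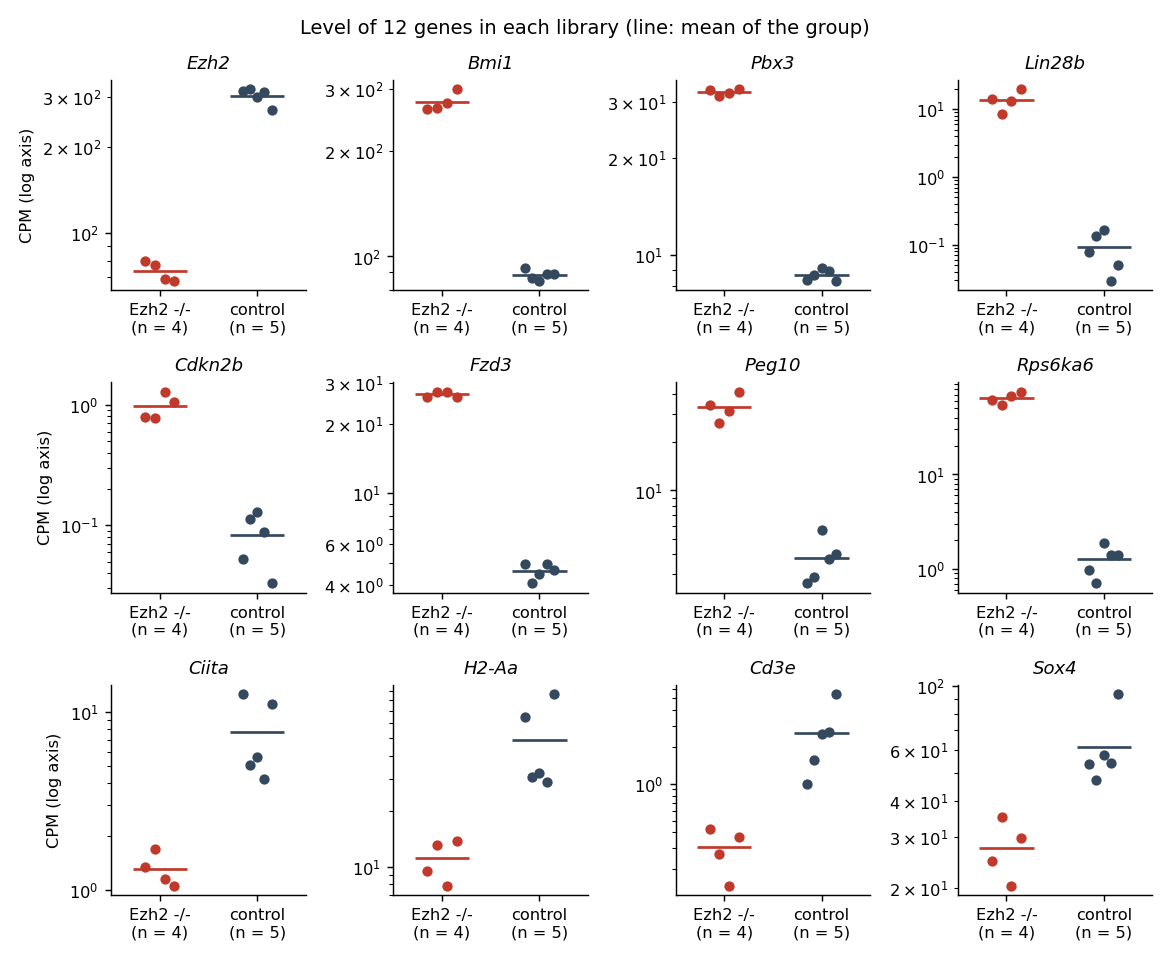
CPM on log axes for 12 genes in each library, Ezh2 -/- (red, n = 4) and control (grey-blue, n = 5), with a line at the group mean. The 12 genes were picked from the called genes, and in each no Ezh2 -/- library overlapped a control. Bmi1 was 265 to 300.3 CPM in Ezh2 -/- and 85.1 to 92.9 CPM in controls.

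In the Lin28 and let-7 axis Lin28b, Igf2bp3 and Hmga2 were expressed in Ezh2 -/- and nearly silent in controls, while another member, Igf2bp2, was lower. Lin28b (Entrez gene 380669), which blocks maturation of let-7 microRNAs and marks fetal blood formation, measured 14.3, 8.51, 13.3 and 19.8 CPM in Ezh2 -/- and 0.0786, 0.136, 0.165, 0.0293 and 0.0496 CPM in controls. The controls held 22 counts together and the Ezh2 -/- libraries 2764 (7.23 ± 0.32, adjusted p = 1.3e-14). Igf2bp3, a fetal mRNA-binding protein gene, had 260 counts in Ezh2 -/- and 4 in controls (1.44, 0.701, 1.17 and 1.95 against 0, 0, 0.0183, 0.0293 and 0.0331 CPM). The chromatin protein gene Hmga2, a let-7 target, had 394 and 24 counts (1.83, 1.88, 1.32 and 3.03 CPM in Ezh2 -/- and 0.0262, 0.113, 0.128, 0 and 0.182 CPM in controls). All libraries of these 3 genes were separated by group, and each gene passed (6.05 ± 0.63 and 4.36 ± 0.60 for Igf2bp3 and Hmga2, adjusted p = 7.34e-08 and 5.98e-06). Without Ezh2 -/- replicate 4, the highest in all 3, the changes were 5.25 for Igf2bp3 and 3.58 for Hmga2. Of the rest of the 24-gene axis 3 members fell (1 to 3), of which the uridyl transferase gene Tut7 (-0.26 ± 0.05, adjusted p = 0.000241) was called in every fit that left out 1 library, and 18 were not called. Igf2bp2, a further mRNA-binding protein gene, measured 1.51, 1.94, 1.5 and 2.08 CPM in Ezh2 -/- and 2.65, 2.9, 3.76, 3.25 and 4.18 CPM in controls (-0.96 ± 0.33, adjusted p = 0.0393), a call that, of the fits that left out 1 library, was made only without control replicate 4 or Ezh2 -/- replicate 4 (adjusted p up to 0.142, without Ezh2 -/- replicate 3). Igf2bp1 and the let-7 target Trim71 were not tested, with 2 and 2 counts in Ezh2 -/- and 14 and 5 in controls. In Ezh2 +/- libraries Lin28b was 0.114 ± 0.0399 CPM (SD, n = 4).

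Imprinted genes, which are read from 1 parental copy, had more increases than decreases. Of 65 in the files 48 were tested, and 16 were higher (33.3%, against 11.5% of all genes; 13 to 16, and 12 without control replicates 3 and 5), 8 of them at least 2-fold, and 5 lower (10.4%; 2 to 5). Nearly silent members were tested only if some group expressed them, so the share of higher genes is set in part by the filter. Peg10, a retrotransposon-derived placental gene, measured 34.3, 26.3, 31.4 and 41.5 CPM in Ezh2 -/- and 2.62, 2.88, 5.67, 3.75 and 4.02 CPM in controls (3.14 ± 0.22, adjusted p = 5.16e-11). Sfmbt2, itself a Polycomb-type protein of the placenta, measured 4.52, 4.39, 3.59 and 4.42 CPM in Ezh2 -/- and 0.314, 0.499, 0.477, 0.497 and 1.31 CPM in controls (2.74 ± 0.38). Ascl2, a trophoblast transcription factor gene, rose by 2.26 ± 0.26, and the growth factor adaptor gene Grb10, well expressed in MEPs, rose to 280.0, 273, 276 and 337 CPM in Ezh2 -/-, against 209.9, 222, 226, 209.9 and 159 CPM in controls (0.53 ± 0.08). Snrpn, a splicing factor gene, had 295 counts in Ezh2 -/- and 9 in controls (5.22 ± 0.66; 4.58 without Ezh2 -/- replicate 4 and 6.22 without control replicate 5), and its counts are identical to those of Snurf, which shares the transcript. The median change of the list was 0.09.

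Of the 63 gene lists, CDK inhibitors had the largest share of members raised. Of 8 genes 6 were higher (75%, against 11.5% of all genes; 4 to 5) and 1 was lower (median change 0.77). Cdkn2a (Entrez gene 12578), which encodes p16Ink4a and p19Arf, had 1319 counts in Ezh2 -/- and 4 in controls, or 8.08, 5.71, 8.33 and 4.08 CPM in Ezh2 -/- against 0.0262, 0.0227, 0, 0 and 0.0331 CPM in controls. It was detected at clear levels in every Ezh2 -/- library and close to 0 in every control (8.25 ± 0.91, adjusted p = 1.55e-07). The counts do not separate the 2 start sites whose windows are shown above. Cdkn2b, its neighbour that encodes p15, measured 0.793, 0.783, 1.28 and 1.05 CPM in Ezh2 -/- and 0.0524, 0.113, 0.128, 0.0878 and 0.0331 CPM in controls (3.54 ± 0.38, adjusted p = 1.32e-07). The third of the INK4 genes raised, Cdkn2c (p18), was already expressed and measured 28, 31.4, 32.5 and 30.1 CPM in Ezh2 -/- and 19.5, 19.3, 19.8, 21.4 and 17.8 CPM in controls (0.64 ± 0.10). Cdkn1b (p27) went the other way, with 29.9, 33.5, 30.8 and 34.2 CPM in Ezh2 -/- and 45.2, 40.1, 46.2, 42.4 and 49.6 CPM in controls (-0.49 ± 0.10, adjusted p = 0.000733).

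Per kilobase the order of the CDK inhibitors stayed led by genes that were already on. In Ezh2 -/- libraries the mean RPKM was 27.6 for Cdkn2c, 16.5 for Cdkn3, 13.3 for Cdkn1b, 9.41 for Cdkn1a, 5.76 for Cdkn2a and 0.702 for Cdkn2b. In controls Cdkn1b was at 18.6, Cdkn2c at 17.7, Cdkn2a at 0.0144 and Cdkn2b at 0.0596 RPKM. Cdkn1a, the p53-induced p21 gene, was higher in Ezh2 -/- over all libraries (0.91 ± 0.32, adjusted p = 0.0422), but its call ended when any library other than control replicate 5 was left out (adjusted p 0.053 without Ezh2 -/- replicate 2 to 0.11 without Ezh2 -/- replicate 4), and its groups overlapped. Cdkn1c (p57) was likewise called in all libraries (1.27 ± 0.41) and not without Ezh2 -/- replicate 4 (0.83, adjusted p = 0.183), control replicate 2 (adjusted p = 0.0583) or control replicate 5 (adjusted p = 0.0536).

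Some p53 target genes were higher as well. Of 39 tested 11 were higher (28.2%; 8 to 10) and 5 lower (2 to 6), with a median change of 0.00. Phlda3, an inhibitor of AKT signalling, measured 18.4, 15.4, 18.2 and 14.7 CPM in Ezh2 -/- and 4.3, 4.01, 3.32, 3.45 and 3.37 CPM in controls (2.21 ± 0.15, adjusted p = 3.54e-11). Zmat3 (1.15 ± 0.13), an RNA-binding effector, the TRAIL receptor gene Tnfrsf10b (1.30 ± 0.18) and Psrc1 (0.84 ± 0.08) rose with it. The damage recognition gene Xpc fell (-0.42 ± 0.11, adjusted p = 0.00489). The list thus held raised and lowered members.

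Proliferation genes were higher by small amounts, and how many passed depended on the libraries compared. Of 69 mitosis genes 22 were higher (31.9%, median change 0.23). Of 55 DNA replication genes 11 were higher and 1 lower (median 0.13), and of 35 nucleotide synthesis genes 12 were higher and 2 lower (median 0.15). The higher counts were 10, 4 and 7 without control replicate 1, and 13, 4 and 7 without Ezh2 -/- replicate 3. They were 13, 6 and 8 without control replicate 5, and 6 DNA replication genes were higher without Ezh2 -/- replicate 1. Without control replicates 3 and 5 they were 4, 1 and 3, and in female libraries alone 3, 2 and 1. Without control replicate 4 they rose to 33, 12 and 14, and DESeq2 gave 29, 11 and 14. Melk, a mitotic kinase, measured 56.4, 57.9, 60.3 and 57.6 CPM in Ezh2 -/- and 36.7, 43.6, 36.1, 42.3 and 31.7 CPM in controls (0.62 ± 0.09, adjusted p = 1.07e-05). Racgap1, which acts in cytokinesis, rose by 0.48 ± 0.08, and Rrm2, the regulated subunit of ribonucleotide reductase, by 0.52 ± 0.14 (0.44, adjusted p = 0.0865, without control replicates 3 and 5). Of 29 cyclin, G1 kinase, E2F and Rb genes 9 were higher (31%, with a range of 5 to 8) and 1 lower (0 to 2). The higher count was 3 without control replicates 3 and 5 and 3 in female libraries alone. The largest change in this list was in Ccnd1, the G1 cyclin D1, with 48.4, 42.5, 39.4 and 56.4 CPM in Ezh2 -/- and 17, 14.9, 18, 10.7 and 15.3 CPM in controls (1.62 ± 0.33, adjusted p = 0.000854). The E2F repressor gene E2f7 rose to 33.3, 34, 29.1 and 30.5 CPM in Ezh2 -/-, against 16.7, 17.1, 15.8, 13.2 and 18.1 CPM in controls (0.95 ± 0.14).

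**Figure D3:**
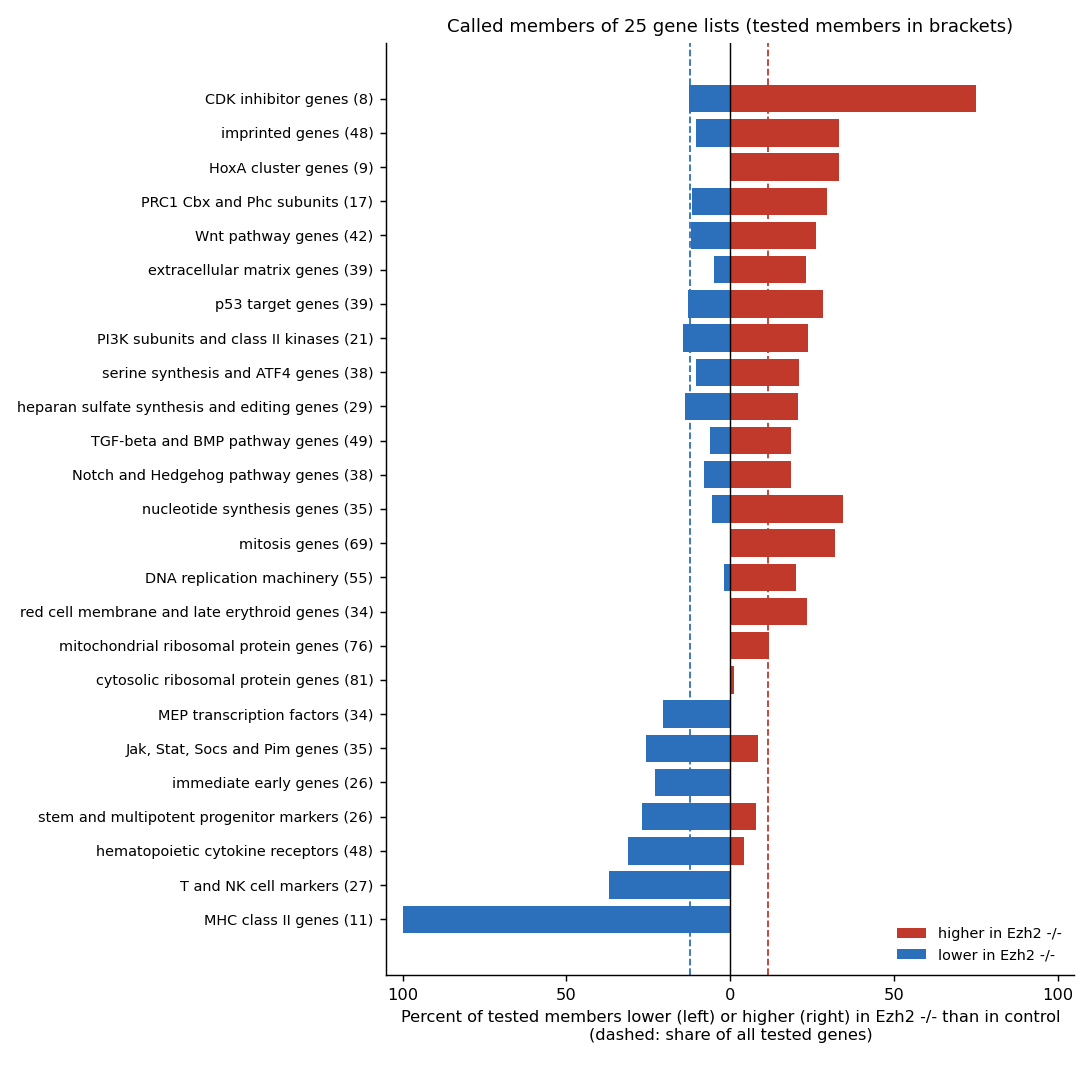
Percent of tested members called higher (red, right) or lower (blue, left) in Ezh2 -/- than in control for 25 gene lists, with the number tested in brackets. Dashed lines mark the shares of all tested genes (11.5% higher and 12.2% lower). CDK inhibitors have the highest share raised (75%) and the MHC class II genes the highest share lowered (100%).

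Developmental transcription factors changed gene by gene. Of 38 Sox, Fox, Tbx, Pax and Lhx factors 3 were higher (7.89%; 2 to 4, and 1 without control replicates 3 and 5) and 4 lower (10.5%; 2 to 4), both under the shares of all genes, and of 4 HoxB genes 1 was lower, though not without control replicates 3 and 5. In the HoxA cluster 3 of 9 tested genes rose (33.3%, median change 0.57), and 3 were higher whichever library was left out. Hoxa4 rose by 1.68 ± 0.20, and Hoxa10 by 1.20 ± 0.32 with overlapping groups. Pbx3, a cofactor of the TALE homeobox family for HOX proteins, measured 32.7, 31.2, 32 and 32.8 CPM in Ezh2 -/- and 8.36, 8.69, 9.13, 8.93 and 8.3 CPM in controls, and the spread within each group was small (1.88 ± 0.10, adjusted p = 7.71e-13). In Ezh2 +/- libraries it lay between, at 13.3 ± 0.492 CPM (SD, n = 4). Of the 11 TALE genes 3 rose (1 to 3; 1 without control replicate 3) and 5 fell (3 to 6, and 2 without control replicates 3 and 5), among them Pbx4 (-0.55 ± 0.08) and the repressor genes Tgif1 (-0.75 ± 0.11) and Tgif2 (-0.39 ± 0.10; -0.33, adjusted p = 0.0847, without control replicates 3 and 5).

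Signalling pathway lists held raised and lowered members. Of 42 Wnt pathway genes 11 were higher (26.2%; 9 to 11) and 5 lower (2 to 5). The receptor gene Fzd3 measured 26.1, 27.6, 27.4 and 26.3 CPM in Ezh2 -/- and 4.95, 4.06, 4.44, 4.92 and 4.63 CPM in controls (2.52 ± 0.15, adjusted p = 3.26e-12). Lgr4, the receptor for R-spondins, measured 14.7, 11.4, 14.8 and 16.1 CPM in Ezh2 -/- and 2.02, 2.99, 3.7, 2.34 and 2.26 CPM in controls (2.43 ± 0.18). The Wnt co-receptor gene Ryk rose by 1.08 ± 0.14, and the intracellular transducer gene Dvl1 fell (-0.58 ± 0.10, adjusted p = 8.3e-05). The ligand gene Wnt11 fell to 10 counts over the Ezh2 -/- libraries, against 190 over controls (-3.90 ± 0.69, adjusted p = 0.000158).

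In the TGF-beta and BMP pathway 9 of 49 genes were higher (18.4%; 6 to 9) and 3 lower (1 to 6). Bmpr1a, a BMP type 1 receptor gene, measured 13.9, 17.3, 14.4 and 16.3 CPM in Ezh2 -/- and 0.157, 0.181, 0.513, 0.322 and 1.31 CPM in controls. No Ezh2 -/- library came near the highest control, which was replicate 5 (5.04 ± 0.52, adjusted p = 5.56e-08; 5.64 without control replicate 5 and 4.35 without Ezh2 -/- replicate 4). Smad9, a transducer of BMP signals, rose to 1.44, 1.17, 1.37 and 1.91 CPM in Ezh2 -/-, against 0.131, 0.113, 0.257, 0 and 0.116 CPM in controls (3.53 ± 0.49; 4.16 without control replicate 3). The latent TGF-beta binding protein gene Ltbp4 (2.12 ± 0.30) and the procollagen protease gene Bmp1 (0.83 ± 0.09) rose as well. Of 38 Notch and Hedgehog genes 7 were higher (18.4%; 6 to 7, and 5 without control replicates 3 and 5) and 3 lower (1 to 3), among them the Notch effector Hey2 (1.79 ± 0.30), the feedback gene Nrarp (0.77 ± 0.13) and the Hedgehog transducer Smo (0.51 ± 0.06).

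Some extracellular matrix genes were raised, while lists of surface adhesion and guidance genes held as many or more decreases. Of 39 extracellular matrix genes tested, of 68 in the files, 9 were higher (23.1%; 8 to 9), 8 of them at least 2-fold, and 2 were lower (0 to 3). This share of higher genes is also set in part by the filter on low counts. Of 23 integrins 1 was higher and 5 were lower (2 to 7; median change -0.58), and of 41 Eph, ephrin, semaphorin and plexin genes 5 were higher and 6 lower (2 to 7; median -0.32). Of 19 cadherins and protocadherins 2 were higher and 2 lower, and without control replicates 3 and 5 by edgeR 0 were lower, with 2 at an unadjusted p under 0.05. Fn1, fibronectin, measured 5.94, 7.34, 6.57 and 8.59 CPM in Ezh2 -/- and 0.498, 0.93, 0.899, 0.673 and 1.01 CPM in controls (3.12 ± 0.48, adjusted p = 2.59e-05). The basement membrane genes Lamc1 (1.47 ± 0.15), Nid1 (1.40 ± 0.18) and Nid2 (2.67 ± 0.34) rose, and so did Fbln1 (3.89 ± 0.54). Hs6st2, which adds 6-O-sulfate to heparan sulfate, measured 24.7, 20.7, 30.9 and 24.5 CPM in Ezh2 -/- and 1.73, 2.22, 2.51, 2.96 and 1.6 CPM in controls (3.52 ± 0.25, adjusted p = 8.55e-11). Its carrier protein gene Sdc1, syndecan-1, rose by 2.46 ± 0.18 and Glce, the epimerase of the same chain, by 0.78 ± 0.09. Their list of 29 heparan sulfate synthesis and editing genes held decreases too (median change -0.02). In it 6 genes were higher (20.7%, with a range of 5 to 6) and 4 lower (13.8%, with a range of 0 to 5). Ugt8a, which makes galactosylceramide of myelin, measured 28.4, 29.1, 36.8 and 30.8 CPM in Ezh2 -/- and 3.62, 3.74, 4.03, 4.18 and 2.76 CPM in controls (3.13 ± 0.20, adjusted p = 5.74e-12).

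Further genes with large changes or low adjusted p-values had varied functions. Ncam1, the neural cell adhesion molecule, measured 14.8, 14.8, 9.94 and 17 CPM in Ezh2 -/- and 0.524, 0.181, 0.734, 0.117 and 1.6 CPM in controls (4.46 ± 0.50, adjusted p = 2.3e-07; 5.09 without control replicate 5). Neo1, which encodes the netrin and RGM receptor neogenin, measured 15.4, 15.6, 14.6 and 14.8 CPM in Ezh2 -/- and 1.26, 0.953, 1.01, 1.23 and 1.16 CPM in controls (3.70 ± 0.58). The intracellular factor gene Fgf13 (4.95 ± 0.28), the Rac GTPase-activating protein gene Chn1 (4.53 ± 0.25) and the splicing regulator gene Khdrbs3 (2.87 ± 0.15) were called with adjusted p of 7.71e-13, 7.71e-13 and 4.62e-13. Rps6ka6, which encodes the S6 kinase RSK4, reached 61.7, 54.2, 67.6 and 75 CPM in Ezh2 -/- and 0.969, 0.703, 1.87, 1.4 and 1.41 CPM in controls (5.66 ± 0.32, adjusted p = 1.08e-12). It was 2 ± 0.451 CPM in Ezh2 +/- libraries (SD, n = 4). Luzp1, a cytoskeletal leucine zipper protein gene, measured 57, 57.2, 57.8 and 59.9 CPM in Ezh2 -/- and 11.1, 10.7, 11.3, 9.28 and 14.2 CPM in controls (2.33 ± 0.12, adjusted p = 4.62e-13). Pkp4, a plakophilin of cell junctions, measured 80.5, 77.1, 87.2 and 93.5 CPM in Ezh2 -/- and 15.6, 15.1, 21.4, 18.1 and 22.1 CPM in controls (2.18 ± 0.12), and the phosphatase gene Ppm1e rose by 2.03 ± 0.10.

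PI3K signalling genes changed at several steps. Of 21 tested 5 were higher (23.8%; 4 to 5) and 3 lower (1 to 4). The class II kinase gene Pik3c2a, which acts in endocytosis, measured 20.8, 21.3, 22.2 and 21.6 CPM in Ezh2 -/- and 2.23, 1.47, 2.2, 2.02 and 4.43 CPM in controls (3.07 ± 0.34, adjusted p = 1.43e-07). Inppl1, the phosphatase SHIP2, rose to 29.4, 26.5, 24.8 and 25.9 CPM in Ezh2 -/-, against 7.15, 5.85, 7.67, 7.49 and 7.6 CPM in controls (1.86 ± 0.14). Its blood-specific relative Inpp5d, SHIP1, fell to 145, 149.7, 128 and 139 CPM in Ezh2 -/-, against 183, 173, 174, 161 and 182 CPM in controls (-0.31 ± 0.06, adjusted p = 0.00099). The 2 phosphatase genes thus moved in opposite directions, each without overlap between the groups.

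The MHC class II genes, which present antigen, fell as a set. All 11 genes tested were lower in Ezh2 -/- (median -2.05, against 12.2% lower and a median of -0.01 over all genes), and for all 11 no Ezh2 -/- library reached a control. Ciita, the master activator of the set, measured 1.34, 1.69, 1.15 and 1.05 CPM in Ezh2 -/- and 12.6, 5.06, 5.56, 4.21 and 11.1 CPM in controls (-2.54 ± 0.52, adjusted p = 0.000733). H2-Aa, an alpha chain, measured 9.48, 13.2, 7.86 and 13.8 CPM in Ezh2 -/- and 64.9, 30.8, 32.4, 29 and 86.5 CPM in controls (-2.14 ± 0.54, adjusted p = 0.00507). The invariant chain gene Cd74 measured 23.1, 30.6, 15.8 and 33.2 CPM in Ezh2 -/- and 161, 71, 72.3, 56 and 179 CPM in controls (-2.05 ± 0.52; -1.68, adjusted p = 0.0628, without control replicates 3 and 5). Control replicates 1 and 5 were the highest in all 3. Summed over the list, the level was 83.8 to 122 CPM in Ezh2 -/- libraries and 194 to 508 CPM in controls. 10 or 11 genes were lower whichever library was left out, and 6 without control replicates 3 and 5 together (11 at an unadjusted p under 0.05). The markers of monocytes, macrophages and dendritic cells, which carry class II, had summed levels of 54 to 90.2 CPM in Ezh2 -/- and 83.2 to 259 CPM in controls. Of these 24 markers 3 were called lower (12.5%, near the 12.2% of all genes, and 1 to 5 with 1 library left out). Their part in the class II result was not tested.

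Promoters of class II genes share an inverted CCAAT element, the Y box, here searched as CTGATTGG and its reverse complement CCAATCAG over 300 bases. It stood in the windows of 4 of the 8 class II genes that had one (H2-Aa, H2-Eb1, H2-Eb2 and H2-Oa), beside 6.57% of tested genes with a window (720 of 10952). The 250 bases before the H2-Aa start (chr17:34287824-34288073, minus strand) and the H2-Eb1 start (chr17:34305617-34305866, plus strand) are shown with the motif in capitals.
H2-Aa: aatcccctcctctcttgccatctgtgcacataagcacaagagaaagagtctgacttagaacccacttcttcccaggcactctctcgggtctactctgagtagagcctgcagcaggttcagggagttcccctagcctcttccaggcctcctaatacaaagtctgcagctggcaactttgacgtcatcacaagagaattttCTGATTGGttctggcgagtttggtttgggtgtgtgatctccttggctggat
H2-Eb1: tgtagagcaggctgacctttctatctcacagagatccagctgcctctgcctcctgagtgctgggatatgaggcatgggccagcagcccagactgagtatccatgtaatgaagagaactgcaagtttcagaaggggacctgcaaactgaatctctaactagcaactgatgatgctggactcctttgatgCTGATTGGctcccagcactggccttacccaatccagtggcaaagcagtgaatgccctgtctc
These windows hold 3 and 0 CpG. A match is a description of the sequence and was not tied to the fall of these genes.

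T and NK cell markers were also lower. Of 27 tested 10 were lower (37%; 7 to 16, the last without Ezh2 -/- replicate 4, and 5 without control replicates 3 and 5). Cd3e, a T cell receptor subunit gene, measured 0.427, 0.268, 0.146 and 0.365 CPM in Ezh2 -/- and 0.996, 1.57, 2.55, 2.63 and 5.41 CPM in controls, without overlap (-3.08 ± 0.48, adjusted p = 2.99e-05). Cd5 (-2.44 ± 0.49) and Cd6 (-2.43 ± 0.54) fell too. These levels are low in an erythroid progenitor sort. The summed level of the list overlapped, at 86.4 to 159.8 CPM in Ezh2 -/- and 93.3 to 321 CPM in controls. Of 18 B lineage markers 1 was called higher (0 to 2), and their summed level was 12 to 62.1 CPM in Ezh2 -/- and 6.67 to 33.1 CPM in controls.

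**Figure D4:**
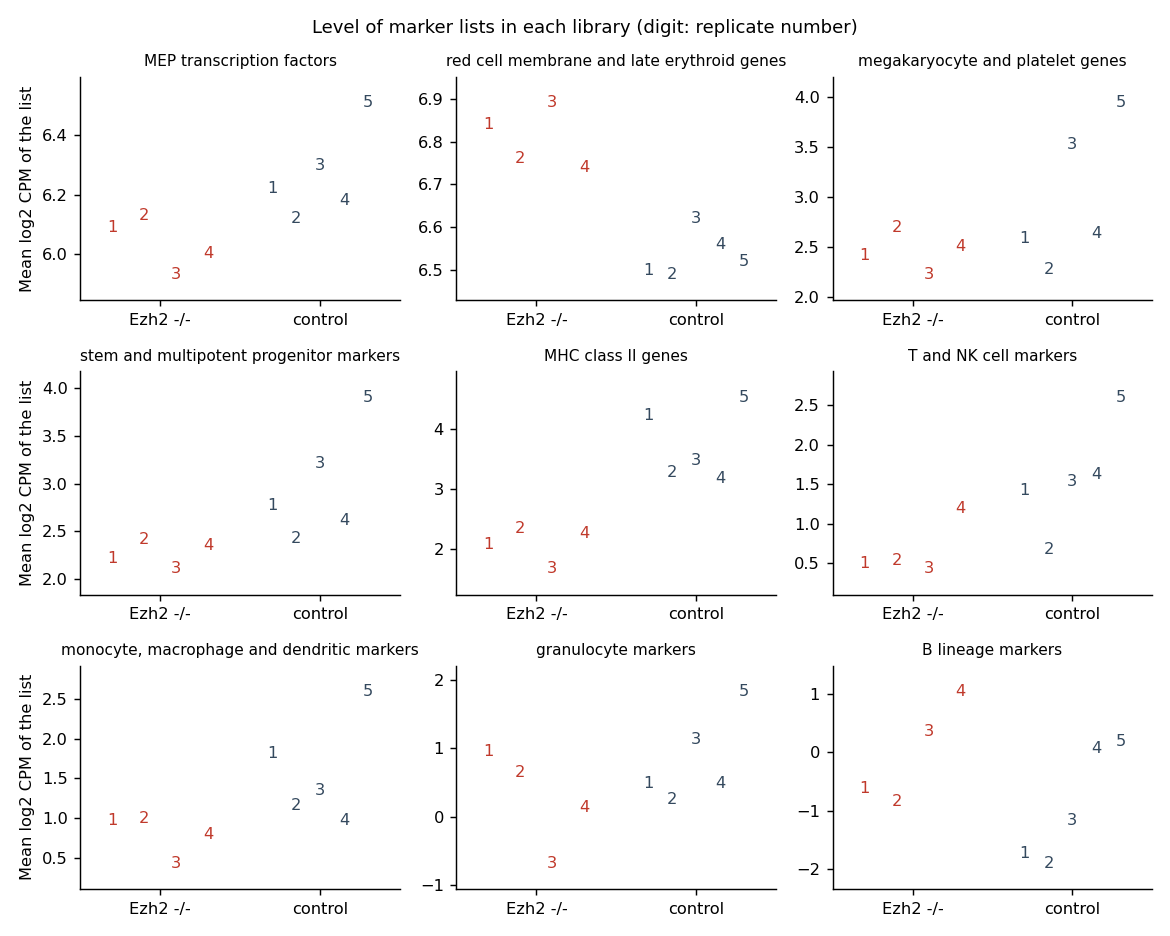
Mean log2 CPM of 9 marker lists in each library, with digits for replicate numbers, Ezh2 -/- (red, left) and control (grey-blue, right). Control replicates 3 and 5 lie highest for megakaryocyte genes (3.52 and 3.94), while for MHC class II and for red cell membrane genes the groups do not overlap on this scale.

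Part of the cytokine receptors and of the kinases behind them was reduced. Of 48 receptors 15 were lower (31.2%) and 2 higher, and the lower count was 9 without control replicate 5, 7 without Ezh2 -/- replicate 3 and 6 without control replicates 3 and 5. Il6ra, the interleukin 6 receptor gene, measured 0.61, 0.659, 0.293 and 0.709 CPM in Ezh2 -/- and 3.09, 1.34, 2.44, 1.7 and 7.06 CPM in controls (-2.50 ± 0.54, adjusted p = 0.0015). Ifngr2, a chain of the interferon gamma receptor, measured 13.1, 14.1, 13.7 and 16.6 CPM in Ezh2 -/- and 21.6, 21.4, 20.9, 20.6 and 17.8 CPM in controls (-0.50 ± 0.08, adjusted p = 4.26e-05). The interleukin 1 receptor gene Il1r1 rose instead (0.91 ± 0.13). Of 35 Jak, Stat, Socs and Pim genes 9 were lower (25.7%; 7 to 11) and 3 higher (3 to 4, and 2 without control replicates 3 and 5). Jak2, the kinase of the erythropoietin and thrombopoietin receptors, measured 179, 188, 165 and 177 CPM in Ezh2 -/- and 215, 199, 210.3, 202 and 223 CPM in controls (-0.25 ± 0.05, adjusted p = 0.00086). Stat2 (-0.60 ± 0.10), Stat6 (-0.27 ± 0.04) and the kinase gene Pim1 (-0.93 ± 0.19) fell, and the feedback gene Socs2 rose to 7.08, 3.89, 7.47 and 6.77 CPM in Ezh2 -/-, against 1.86, 1.18, 1.98, 1.46 and 3.11 CPM in controls (1.68 ± 0.29).

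Among lineage regulators the calls were decreases, mostly of small size. Of 34 MEP transcription factors 7 were lower (20.6%; 4 to 8, with 4 without Ezh2 -/- replicate 3). By edgeR 0 were higher, with 4 at an unadjusted p under 0.05 and 2 called higher by DESeq2. Spi1, which encodes the myeloid factor PU.1, measured 3.21, 3.36, 2.11 and 2.51 CPM in Ezh2 -/- and 7.15, 5.26, 5.85, 5.59 and 15.2 CPM in controls (-1.55 ± 0.39, adjusted p = 0.00555). The small MAF genes Mafk (-0.33 ± 0.08) and Mafg (-0.23 ± 0.06) fell slightly. Sox4, a factor of early progenitors, measured 24.7, 35.1, 20.3 and 29.8 CPM in Ezh2 -/- and 53.6, 47.1, 57.6, 53.9 and 93.3 CPM in controls (-1.17 ± 0.20, adjusted p = 0.000105). The stem and progenitor list had 7 of 26 lower and 2 higher, with 2 lower without control replicate 5, 4 without control replicate 1 and 3 without Ezh2 -/- replicate 1 or 3. Cd34 illustrates that dependence, at 0.57, 0.721, 0.385 and 0.644 CPM in Ezh2 -/- and 1.28, 1.16, 3.59, 2.02 and 42.7 CPM in controls (-3.95 ± 1.06, adjusted p = 0.00829; -2.17, adjusted p = 0.111, without control replicate 5 and -4.72 without Ezh2 -/- replicate 4). Podxl, which encodes the CD34-like sialomucin podocalyxin, moved oppositely, at 131, 74.7, 134 and 133 CPM in Ezh2 -/- and 14.7, 15.4, 21, 13.7 and 14.1 CPM in controls (2.90 ± 0.20, adjusted p = 4.2e-11).

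Red cell membrane genes were slightly raised. Of 34 red cell membrane and late erythroid genes 8 were higher (23.5%; 5 to 9, with 5 without control replicate 1 or Ezh2 -/- replicate 3). By edgeR 0 were lower, with 0 at an unadjusted p under 0.05 and 0 by DESeq2. The mean log2 CPM of the list was 6.74 to 6.89 in Ezh2 -/- and 6.49 to 6.62 in controls, without overlap, but its summed level overlapped, at 11928 to 12982 CPM in Ezh2 -/- and 9903 to 12398 CPM in controls. Sptb, the erythroid beta spectrin gene, measured 282, 233, 283 and 264 CPM in Ezh2 -/- and 117, 138, 187, 159.7 and 139 CPM in controls (0.84 ± 0.18, adjusted p = 0.00103). The membrane skeleton gene Dmtn (1.28 ± 0.23), the erythroid ubiquitin ligase gene Trim10 (0.70 ± 0.18) and the fatty acid transporter gene Cd36 (1.01 ± 0.15) rose with it. Erfe, the erythroid hormone gene that lowers hepcidin, measured 5.59, 3.17, 5.91 and 5.2 CPM in Ezh2 -/- and 2.28, 2.4, 2.33, 2.9 and 2.58 CPM in controls (0.99 ± 0.25, adjusted p = 0.00467). Among the 8 globin genes tested, embryonic Hba-x was called higher on 58 counts in Ezh2 -/- and 2 in controls, too few for a fold. The adult Hbb-b1 measured 46.4, 33.8, 47.6 and 27.9 CPM in Ezh2 -/- and 46.5, 88.1, 111, 50.8 and 167 CPM in controls, and its counts are the same as those of Hbb-bs in all 9 libraries, so the copies are not told apart (-1.38 ± 0.41, adjusted p = 0.0172; -1.17, adjusted p = 0.0664, without control replicate 5). Ezh2 -/- replicate 3 lay above control replicate 1, so the groups overlapped.

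The decrease of megakaryocyte genes depended on which libraries were compared. Of 44 tested 8 were lower (18.2%, median change -0.86) and 1 higher. The lower count was 1 without control replicate 5 or Ezh2 -/- replicate 3, 2 without Ezh2 -/- replicate 1, 3 without control replicate 3, 14 without control replicate 4 and 17 without Ezh2 -/- replicate 4. Without control replicates 3 and 5 together it was 0 by edgeR, with 2 at an unadjusted p under 0.05. Rgs18, a platelet regulator of G protein signalling, was called in every fit that left out 1 library, at 18.9, 26.3, 16.9 and 18.2 CPM in Ezh2 -/- and 32, 29.4, 50.2, 33.2 and 63.6 CPM in controls (-1.11 ± 0.30, adjusted p = 0.00819), but not without control replicates 3 and 5 together (-0.88, adjusted p = 0.103). Myl9, a myosin light chain gene of mature megakaryocytes, rose at a low level (0.325, 0.474, 0.183 and 0.236 CPM in Ezh2 -/- and 0.0786, 0.0227, 0.0734, 0.0293 and 0.0661 CPM in controls, 2.36 ± 0.44). The immediate early list behaved alike, with 6 of 26 lower and 3 without control replicate 5 or without Ezh2 -/- replicate 3. Without control replicates 3 and 5 it was 0 by edgeR, with 6 at an unadjusted p under 0.05. Ier2 (-0.59 ± 0.16) and the antiproliferative gene Btg1 (-0.66 ± 0.17, with overlapping groups) were called in every fit that left out 1 library, but not without both controls (adjusted p = 0.0738 and 0.0766).

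Several enzymes of amino acid synthesis rose. Of 38 serine synthesis and ATF4 genes 8 were higher (21.1%; 6 to 9) and 4 lower (2 to 5). Cbs, the first enzyme of transsulfuration, measured 3.3, 2.97, 3.15 and 2.47 CPM in Ezh2 -/- and 0.419, 0.544, 0.33, 0.263 and 0.397 CPM in controls (2.95 ± 0.26, adjusted p = 4.47e-09). Cth, the next enzyme of that pathway, measured 10.7, 11.3, 11.7 and 9.02 CPM in Ezh2 -/- and 2.65, 2.65, 3.36, 3.69 and 2.48 CPM in controls (1.84 ± 0.19, adjusted p = 3.84e-08). Pycr1, which makes proline, rose by 1.17 ± 0.18 and Psph, the last step of serine synthesis, by 0.48 ± 0.07. The stress factor gene Ddit3, a target of ATF4, fell (-0.60 ± 0.13, adjusted p = 0.00129). Of 81 cytosolic ribosomal protein genes 1 was higher (0 to 3). Of 77 respiratory chain subunits 6 were higher (7.79%, below the 11.5% of all genes), and this count was 0 without control replicate 1 or Ezh2 -/- replicate 3, 3 without control replicate 5 and 14 without control replicate 4.

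The lowest adjusted p-values among lowered genes other than Ezh2 belonged to genes of varied function with modest changes. Frat2, which binds the kinase GSK3 and so favours Wnt signals, measured 90.1, 99.7, 87.1 and 86.4 CPM in Ezh2 -/- and 148, 142, 127, 147 and 138 CPM in controls (-0.62 ± 0.06, adjusted p = 9.38e-09). Rec8, a cohesin subunit of meiosis, measured 38.1, 34.2, 25.6 and 31.7 CPM in Ezh2 -/- and 77.2, 83.7, 81.3, 65.5 and 77.8 CPM in controls (-1.22 ± 0.14). Retreg1, a receptor for autophagy of the endoplasmic reticulum, measured 9.5, 16.6, 12 and 11.9 CPM in Ezh2 -/- and 29.5, 26.1, 30.6, 34.4 and 30.6 CPM in controls (-1.28 ± 0.16). Sec24d, a coat protein of vesicles leaving that organelle (-0.92 ± 0.11), the Golgi tether gene Cog3 (-0.46 ± 0.05), the calsyntenin gene Clstn1 (-0.46 ± 0.04) and the autophagy gene Atg16l1 (-0.54 ± 0.07) fell too. In all 7 the groups did not overlap, and all 7 were called whichever library was left out. Both traits follow largely from the choice by lowest adjusted p and are given as a description. Every Ezh2 -/- library lay below every control for 11.2% of all genes, and 39.4% of all lower calls were made every time.

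The same loss of Ezh2 on the V617F background was measured in libraries that share none with the comparison above: 6 V617F Ezh2 -/- libraries, all female, against 4 V617F libraries (1 male and 3 female). With V617F, 1814 genes were higher (13%) and 1895 lower (13.6%). In both comparisons 818 genes were higher, which is 51% of the 1603 and 45.1% of the 1814, while 257 were lower in both, which is 15.1% of the 1704 and 13.6% of the 1895. Of the 1603 higher genes 26 were called lower with V617F, and of the 1704 lower genes 36 were called higher. The difference between both changes, tested as an interaction, was called for 2663 genes (19.1%), but for 157 without control replicates 3 and 5, 533 without control replicate 1, 1068 without control replicate 5, 1716 without Ezh2 -/- replicate 1 and 297 without Ezh2 -/- replicate 3, so the number is not stable.

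Lin28b rose by 8.77 ± 0.37 with V617F, beside 7.23 ± 0.32 without it, and Bmi1 by 1.54 ± 0.05, beside 1.65 ± 0.05. Pbx3 (1.61 ± 0.11 with V617F), Peg10 (2.41 ± 0.22), Chn1 (4.02 ± 0.26) and Ddah1, which breaks down a natural inhibitor of nitric oxide synthesis (4.42 ± 0.32, beside 5.02 ± 0.30 without V617F), were also called in both. None of these 6 was called in the interaction over all libraries (adjusted p 0.0547 to 0.289), but Lin28b was without control replicate 4 (adjusted p = 0.036), and Peg10 without control replicate 3 or Ezh2 -/- replicate 2 (adjusted p = 0.0412 and 0.0416). The log2 change of Cdkn2a was smaller with V617F, at 2.82 ± 0.68 (interaction -5.43 ± 1.16, adjusted p = 0.0121, and 0.0587 without control replicates 3 and 5). Controls held almost no Cdkn2a counts, so the size of its change without V617F, and of this interaction, is uncertain. Podxl was called without V617F but not with it (0.33 ± 0.19, adjusted p = 0.19; interaction -2.57 ± 0.27, adjusted p = 7.07e-06). Sdc1 rose by 0.72 ± 0.17 with V617F (interaction -1.73 ± 0.24, adjusted p = 0.000396). Of the class II genes 0 of 11 were called with V617F in either direction by edgeR, with 0 at an unadjusted p under 0.05 and 0 by DESeq2 (median change 0.52). There Ciita changed by 0.52 ± 0.49 and H2-Aa by 0.58 ± 0.52 (adjusted p = 0.448 and 0.423). The interaction was 3.06 ± 0.69 for Ciita (adjusted p = 0.0126, and 0.0505 without control replicates 3 and 5). It was 2.72 ± 0.74 for H2-Aa (adjusted p = 0.0219), which was not called without control replicate 1 (adjusted p = 0.0547) or Ezh2 -/- replicate 3 (adjusted p = 0.0623). The T cell gene Cd3e was called lower in both (-2.20 ± 0.49 with V617F, adjusted p = 0.00217). Its list did not fall with V617F: of 27 T and NK cell markers 1 was lower and 2 higher (median change 0.40).

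Several lists had other counts on the V617F background. Of 76 mitochondrial ribosomal protein genes 33 were lower in V617F Ezh2 -/- (median change -0.26). Without V617F 9 were higher (median 0.18; 3 to 22), a share near the 11.5% of all genes, and without control replicates 3 and 5 by edgeR 0 were higher, with 9 at an unadjusted p under 0.05. Of 42 interferon-stimulated genes 4 were lower without V617F (9.52%, below the 12.2% of all genes, and 2 to 7 with 1 library left out). Stat2 and Irf9 (-0.48 ± 0.13) were among them. With V617F 17 were higher, beside 13% of all genes (median changes -0.30 without V617F and 0.59 with it). Of 18 B lineage markers 14 were higher with V617F, beside 1 without it (median changes 3.52 and 1.12), and 2 were called in the interaction. The interaction was also called for 54 of the 76 mitochondrial ribosomal protein genes and 23 of the 42 interferon-stimulated genes, against 19.1% of all genes. These counts are from the fit over all libraries, and the number of interaction calls was not stable. The differences between these list counts were not tested.

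**Figure D5:**
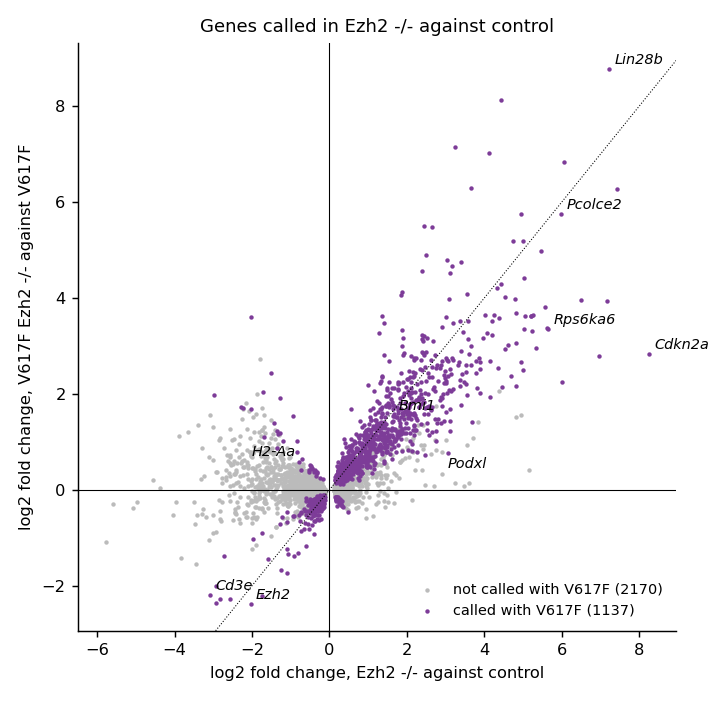
Log2 fold changes of the 3307 genes called in Ezh2 -/- against control (horizontal axis) and their changes in V617F Ezh2 -/- against V617F (vertical axis), in libraries that are not shared. Purple points were also called with V617F, grey points were not, and the dotted line marks equal changes. Raised genes lie mostly above 0 on both axes, while lowered genes spread around 0 on the vertical axis.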

How the data were processed

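RNA-seq counts per Entrez gene were deposited by the authors with 1 file for each of the 29 libraries. Reads were aligned to mm9 with STAR, per the submitters' processing notes. The sources used here do not give the counting program, annotation or strand setting, so reads of overlapping or antisense genes cannot be told apart. Gene lengths, in bases, come from the same deposited files. Names were matched by Entrez identifier to the RefSeq table of GRCm38.p6 for 18772 of 18834 genes, and the 62 unnamed genes held 0.884 to 2.68% of counts.

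The members and gene lists (63 lists) were chosen with earlier results of these data known. Genes were kept by edgeR's filter (minimum count 10, minimum total 15), counts were scaled by TMM (factors 0.95 to 1.09), and 1 model with group and labelled sex was fitted over all 29 libraries with edgeR 4.0.16 in R 4.3.3 (robust quasi-likelihood test, two-sided, 22 residual degrees of freedom, dispersion 0.0326). The p-values were adjusted by Benjamini-Hochberg over all 13928 genes. The sharing of 1 dispersion model assumes similar spread in all groups. In the 9 libraries a floor of 3 counts lay at 0.0505 to 0.0861 CPM, which covers counting error only. RPKM values divide CPM by the deposited length. DESeq2 1.42.0, another scaling, no filter, no sex term, female libraries only and a replicate block were alternatives. Others left out each library in turn, or control replicates 3 and 5. The compared groups were also fitted alone, each change with its own groups and the interaction with all 4.

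Named genes were those called with the 15 largest changes in each direction without overlap, the 15 lowest adjusted p-values in each direction, up to 4 called members of each list in each direction, all members of 9 short lists, and Ezh2, Jak2, Lin28b and Bmi1, apart from some that are not reported here. Same-numbered libraries of the groups did not deviate together. Promoter windows came from RefSeq on GRCm38.p6, and no coordinate of the authors' build was used.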

Additional observations from a re-analysis of the deposited data

Results flagged for a closer look

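Among the genes named in the text, 17 of 264 groups of library values had 1 library far from the rest, by Dixon's gap divided by the range of the group, a check that chance trips in about 1 group in 20. Control replicate 5 was the library in 10 of them: it was highest for Cd34 (gap 0.941 of the range), Sfmbt2 (0.814), Spi1 (0.809), Cd5 (0.797), Sox4 (0.773), Pik3c2a (0.745) and Epop (0.725), and lowest for Grb10 (0.764), Ifngr2 (0.735) and Suz12 (0.722). Among the Ezh2 -/- libraries, replicate 2 was low for Podxl (74.7 CPM, gap 0.963), replicate 4 was high for Grb10 (0.894), and replicate 3 was low for Sfmbt2 (0.863) and Kdm6b (0.841). In the other controls, replicate 3 was high for Podxl (0.762), replicate 2 was high for Pycr1 (0.836) and replicate 2 was low for Inppl1 (0.717). The calls of Cd34 ended without control replicate 5, and those of the other genes held whichever library was left out, apart from Suz12, which was not called.

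For 5 of the 12 genes given on both backgrounds the change differed with V617F by the interaction test. The change with V617F minus the change without it was -5.43 for Cdkn2a, -2.57 for Podxl and -1.73 for Sdc1, on the log2 scale. It was 3.06 for Ciita and 2.72 for H2-Aa. The size for Cdkn2a is uncertain, since controls held almost no counts of that gene.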

How the results depend on the processing

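Over all 29 libraries 1603 genes were higher and 1704 lower. Female libraries alone gave 887 and 794, and leaving out control replicates 3 and 5 together gave 1020 and 783. Leaving out 1 library gave 1260 to 1753 higher and 815 to 1842 lower genes. The genes lower on both backgrounds (257) numbered 137 when each comparison was fitted with its own groups alone. They numbered 109 with female libraries and 168 to 228 with 1 library left out. Those higher on both (818) numbered 576 to 882 over all alternatives. The interaction (2663 genes) was least stable, with 128 in female libraries, 157 without both controls and 1623 with the replicate block. It was called for 297 to 3527 genes with 1 library left out, 3533 with DESeq2 and 3994 with the 4 compared groups alone. The cause of these shifts was not tested. Same-numbered libraries did not pair (correlations of their deviations 0, -0.07, 0.05 and -0.15), and with the replicate block 1599 genes were higher and 1565 lower, 859 higher and 275 lower on both backgrounds. With DESeq2 1785 were higher and 2086 lower, and with its size factors in edgeR 1615 and 1793.

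Among the 132 named genes that were tested, no direction reversed between the main fit and an alternative where either called the gene. Genes called in neither fit were not checked for a reversal, and 2 genes were not tested in the compared groups alone. In female libraries 13 calls were lost (Cdkn1a, Cdkn1c, Erfe, Hbb-b1, Hoxa10, Igf2bp2, Irf9, Kmt2e, Mafg, Rrm2, Trim10, Xpc and Yaf2). Without control replicates 3 and 5 the 11 lost were Btg1, Cd34, Cd74, Cdkn1c, Hbb-b1, Ier2, Igf2bp2, Kmt2e, Rgs18, Rrm2 and Tgif2. Gata1 was called higher by DESeq2 (0.24, adjusted p = 0.0382) and in the compared groups alone (0.24, adjusted p = 0.0388).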
